A study of Homo sapiens with 4 samples.

Results

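Telomerase and shelterin are the enzyme and the protein coat that maintain chromosome ends. The genes described here were 10 picked by function: TERT, the 6 shelterin subunit genes TERF1, TERF2, TERF2IP, TINF2, ACD and POT1, the telomerase-associated protein gene TEP1, and the tankyrase genes TNKS and TNKS2. A gene entered through probe sets to which the platform annotation gave exactly 1 gene symbol, and the brightest such probe set, by its mean level, stood for it. That gave 9 of the 18417 genes measured; TEP1 matched no such probe set and was not analysed here. The rule takes genes by symbol and uses measured levels only to choose among the probe sets of a gene. The genes were picked with earlier results of these data known.

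RNA was profiled on whole-transcript Affymetrix gene arrays. The cells were H1299, a p53-null line from a human non-small cell lung cancer, with a stably integrated tet-on transgene for mouse wild-type p53. Induced cells received 0.5 µg/mL doxycycline for 24 hours, and the 2 induced arrays were set against 2 arrays of the same line before induction. All 4 arrays come from the construct line grown in medium with tet-free serum, no array received doxycycline without the construct, and the labels do not say whether the line is 1 clone. The labels call the arrays of a group technical replicates, so p-values reflect spread among arrays alone, and their small number limits precision. The comparison asks which transcripts differ once p53 is induced. The uninduced arrays precede induction, so p53, doxycycline and time in culture differ together between the groups and cannot be told apart. In bulk RNA, fewer cells with a transcript and less transcript per cell cannot be told apart.

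TERT is the reverse transcriptase that copies telomeric repeats from an RNA template. Shelterin coats those repeats: TERF1 and TERF2 bind the duplex DNA, POT1 binds the single-stranded overhang, ACD (the protein TPP1) holds POT1 and recruits telomerase, TINF2 (TIN2) bridges these proteins, and TERF2IP (RAP1) rides on TERF2. Tankyrases are poly(ADP-ribose) polymerases that release TERF1 from telomeres. Most carcinoma lines keep TERT switched on, and p53 is known as a negative regulator of its transcription.

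Levels are log2 values after RMA, a procedure that corrects background, equalises the arrays' distributions and summarises the probes of a set. The p53 targets CDKN1A, the p21 inhibitor of cyclin-dependent kinases, and MDM2, the ubiquitin ligase of p53, rose 10.8-fold and 7.39-fold. Duplicate arrays correlated across genes at r = 0.995 when induced and 0.997 when uninduced (genes are not independent replicates). The epithelial keratin genes KRT8 and KRT18 and VIM, a mesenchymal filament gene that H1299 is known to express, had induced means of 10.63, 11.04 and 12.32, and uninduced means of 9.485, 11.135 and 12.72. KRT8 rose 2.21-fold (adjusted p = 0.00024 in limma's test), VIM fell to 0.758-fold (adjusted p = 0.00556) and KRT18 was not called. Of 23 measured markers of blood, fibroblast, endothelial, liver and pancreatic cells, 3 were called (CD3E and TEK higher, CD3D lower). Their median level was 5.78 induced and 5.805 uninduced. Their summed log2 level lay between 133.33 and 136.39 induced and between 133.63 and 135.11 uninduced. The highest mean of a marker over all arrays was 7.963, and COL1A1, a fibroblast marker, averaged 7.97 induced and 7.955 uninduced. Probe sets differ in affinity, so levels are compared between arrays and not between genes.

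Of the 9 genes, 3 rose and 4 fell after induction in limma's moderated test (Benjamini-Hochberg adjusted p under 0.05), and 2 did not pass. Over all genes tested the same threshold called 45.1%, with 20.6% higher and 24.6% lower. That balance depended on scaling: 45.6% of the calls were higher as deposited and 53.7% after each array was centred on its median. TNKS2 alone passed with a change of at least 2-fold, a size reached by 6.48% of all genes upward and by 13.2% in either direction. The median log2 fold change was -0.215 over the 9 genes and 0.000 over all genes, and the median absolute change was 0.495 against 0.23. The arrays of both groups did not overlap for any of the 9 genes, as for 66.8% of all genes.

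**Figure D1:**
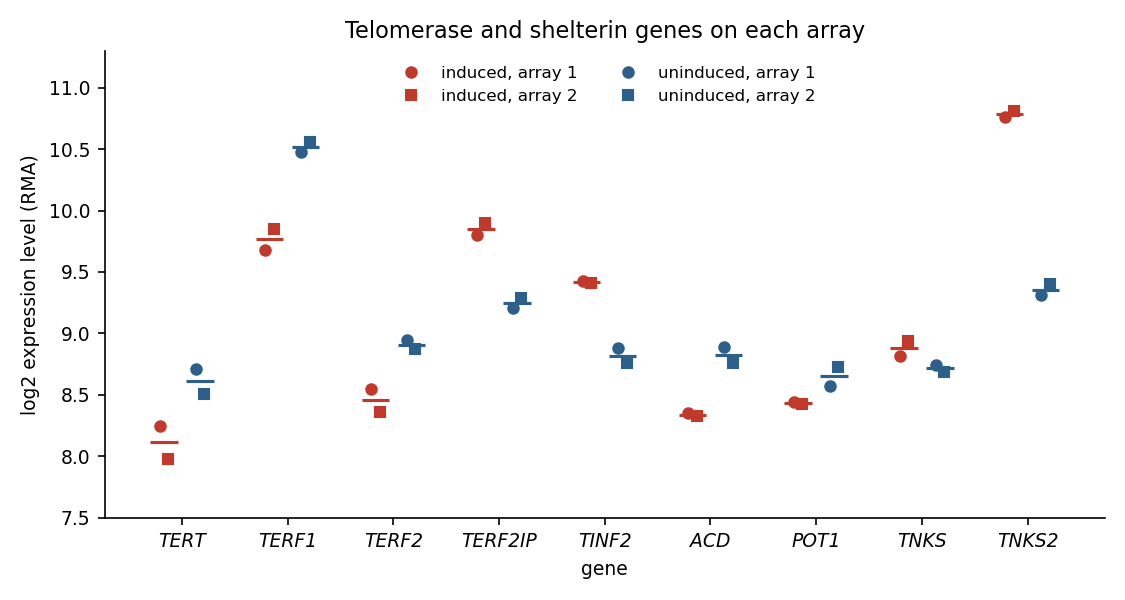
Log2 expression level (vertical axis) of each gene on each array. Red points are the 2 induced arrays, blue points the 2 uninduced arrays, and horizontal bars the group means; TNKS2 has the widest gap between groups, 1.36 log2 units, and TNKS the narrowest, 0.08.

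TERT (probe set 8110783), the catalytic subunit, read 8.25 and 7.98 on the induced arrays, against 8.71 and 8.51 on the uninduced arrays. Both induced arrays were below both uninduced ones, by at least 0.26 log2 units, and the second induced array was the lowest. That lowest reading, 7.98, lay near the highest mean among the markers of other cell types, 7.963. Probe sets differ in affinity, and whether TERT read near background was not tested. TERT averaged 8.115 ± 0.191 when induced and 8.61 ± 0.141 when uninduced (SD, n = 2 arrays each). It fell by 0.495 on the log2 scale (SE 0.120, adjusted p = 0.0111 in limma's test), which is 0.710-fold with a 95% interval of 0.584 to 0.862. Its SDs were the largest of the 9 genes in the induced group and in the uninduced group. The call ended whichever array was left out, with adjusted p-values from 0.0531 to 0.194, so the fall of TERT passed only with all 4 arrays.

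Within shelterin, the duplex-binding genes TERF1 and TERF2 fell. TERF1 (probe set 8146914), a factor that limits telomere elongation, read 9.68 and 9.85 induced, against 10.48 and 10.56 uninduced. The groups were 0.63 log2 units apart at their nearest arrays. TERF1 fell by 0.755 (SE 0.0946, adjusted p = 0.000393 in limma's test), to 0.593-fold (95% interval 0.508 to 0.691). This was the largest fall among the 9 genes. A second TERF1 probe set, 8102789, which the annotation ties to the same gene, read 8.11 and 8.24 induced against 8.90 and 8.99 uninduced. It fell by 0.77 (SE 0.0931, adjusted p = 0.00309 over all rows of the table), so both probe sets moved alike. The number of this second set lies between those of the GAR1 and NAF1 sets, both on chromosome 4, while TERF1 is on chromosome 8. Which locus it reads was not tested.

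TERF2 (probe set 8002289), which folds and shields the chromosome end, read 8.55 and 8.36 induced, against 8.95 and 8.87 uninduced. The induced arrays differed from each other by more than the uninduced ones, and all induced values were lower. TERF2 fell by 0.455 (SE 0.0972, adjusted p = 0.00617), to 0.730-fold (95% interval 0.623 to 0.855). The call ended without induced array 2 (adjusted p = 0.0518), without uninduced array 1 (0.123) and without uninduced array 2 (0.0889). Its partner TERF2IP (probe set 7997281) moved the other way, with 9.80 and 9.90 induced against 9.21 and 9.29 uninduced. TERF2IP rose 1.52-fold (95% interval 1.31 to 1.75; log2 fold change 0.60, SE 0.0874, adjusted p = 0.000872).

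The bridging gene TINF2 (probe set 7978208) read 9.43 and 9.41 induced, against 8.88 and 8.76 uninduced. Duplicate induced arrays were almost identical, and the gap to the uninduced arrays was 0.53. TINF2 rose 1.52-fold (95% interval 1.32 to 1.75; log2 fold change 0.60, SE 0.0867, adjusted p = 0.000838). ACD (probe set 8002057), the subunit that links TINF2 to POT1, read 8.35 and 8.33 induced, against 8.89 and 8.76 uninduced. ACD fell by 0.485 (SE 0.0877, adjusted p = 0.00268), to 0.715-fold (95% interval 0.619 to 0.824), a call that ended without uninduced array 1 (adjusted p = 0.0626). POT1 (probe set 8142697), the overhang-binding subunit, read 8.44 and 8.43 induced, against 8.57 and 8.73 uninduced. Its values did not overlap, yet the log2 fold change of -0.215 (SE 0.0910, adjusted p = 0.098) did not pass; the 95% interval runs from 0.743-fold to 0.999-fold.

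Of the 6 shelterin subunit genes, then, 2 rose (TERF2IP and TINF2), 3 fell (TERF1, TERF2 and ACD) and POT1 was not called. The same threshold called 20.6% of all genes higher and 24.6% lower. The subunits that moved in opposite directions include pairs that bind each other. The within-array log2 ratio of TINF2 to ACD changed by 1.085 (induced minus uninduced), that of TERF2IP to TERF2 by 1.055 and that of TERF1 to TERF2 by -0.30. The ratio of TERF1 to TERF2 was 1.13 and 1.49 induced against 1.53 and 1.69 uninduced. Its 2 induced arrays thus differed from each other by more than the change. With 2 arrays against 2, the exact two-sided permutation test cannot go below p = 0.333, the value it gave for each ratio.

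The 2 tankyrase genes differed in size of change. TNKS2 (probe set 7929168) read 10.76 and 10.81 induced, against 9.31 and 9.40 uninduced. Duplicate arrays lay close together and the groups far apart. TNKS2 averaged 10.785 ± 0.0354 when induced and 9.355 ± 0.0636 when uninduced (SD, n = 2 arrays each), a 2.69-fold rise (95% interval 2.35 to 3.10; log2 fold change 1.43, SE 0.0850, adjusted p = 9.16e-06). TNKS (probe set 8144528), the paralog first described as the TERF1-modifying enzyme, read 8.82 and 8.94 induced, against 8.74 and 8.69 uninduced. Its log2 fold change of 0.165 (SE 0.0876, adjusted p = 0.18) did not pass, with a 95% interval from 0.972-fold to 1.29-fold. The within-array log2 ratio of TNKS2 to TNKS changed by 1.265 (exact permutation p = 0.333, again the smallest possible), and the 95% intervals of these paralogs' fold changes did not meet.

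**Figure D2:**
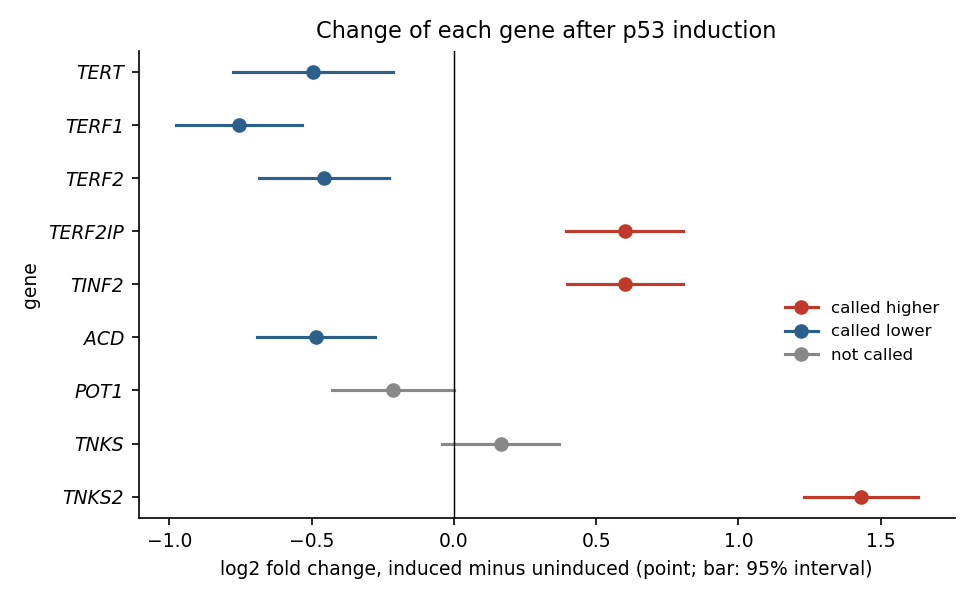
Log2 fold change, induced minus uninduced (horizontal axis), of each gene with limma's 95% interval. Red marks genes called higher (TERF2IP, TINF2, TNKS2), blue genes called lower (TERT, TERF1, TERF2, ACD) and grey genes not called (POT1, TNKS).

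Under the 12 alternative settings the fold changes kept their directions. The log2 fold change of TNKS2 ranged from 1.385 to 1.505, that of TERF1 from -0.84 to -0.67, that of TINF2 from 0.54 to 0.675 and that of TERF2IP from 0.55 to 0.675, all called throughout. The falls of TERT, TERF2 and ACD lost their call under some settings, and of 4 falls 1 was left without uninduced array 1, 2 when uninduced array 2 was dropped, 2 when induced array 2 was dropped and 3 when induced array 1 was dropped.

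**Figure D3:**
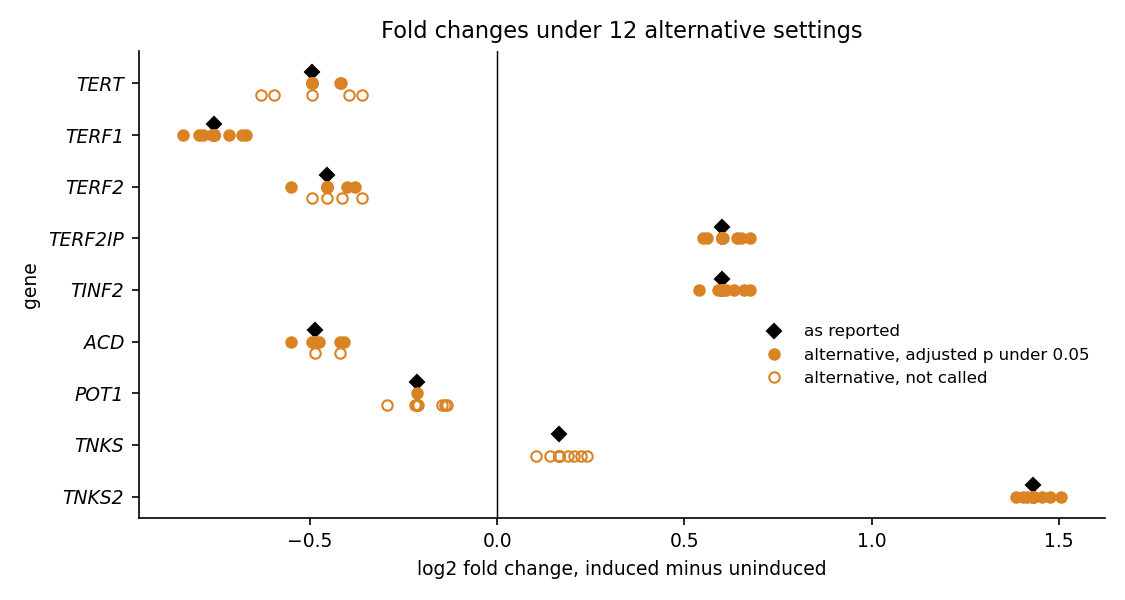
Log2 fold change, induced minus uninduced (horizontal axis), of each gene as reported (black diamonds) and under 12 alternative settings (orange circles, filled where the adjusted p was under 0.05 and open where it was not). Every point of a gene lies on the same side of 0.

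Promoter sequence from the RefSeq table (GRCh38.p14) was examined for 7 of the 10 genes, as 250 bases before to 50 after a start site. No promoter was given for TERF2, and those of TERF1 and TNKS were left out by choice. The promoters of 5 called genes are shown because these genes moved in opposite directions; capitals mark matches on either strand to CACGTG (the E-box bound by MYC and MAX), GGGCGG (the GC box bound by SP1) and CCAAT. TNKS2, TINF2 and TERF2IP rose, and TERT and ACD fell. For TINF2, which has 2 start sites in the table, the first entry is given.
TNKS2 promoter, chr10:91798176-91798475, plus strand: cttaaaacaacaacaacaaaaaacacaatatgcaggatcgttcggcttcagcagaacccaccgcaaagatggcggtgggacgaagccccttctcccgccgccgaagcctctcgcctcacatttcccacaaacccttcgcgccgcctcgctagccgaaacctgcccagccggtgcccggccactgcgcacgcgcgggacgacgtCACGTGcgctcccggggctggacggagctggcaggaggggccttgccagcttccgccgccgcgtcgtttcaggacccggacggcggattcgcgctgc
TINF2 promoter, chr14:24242625-24242924, minus strand: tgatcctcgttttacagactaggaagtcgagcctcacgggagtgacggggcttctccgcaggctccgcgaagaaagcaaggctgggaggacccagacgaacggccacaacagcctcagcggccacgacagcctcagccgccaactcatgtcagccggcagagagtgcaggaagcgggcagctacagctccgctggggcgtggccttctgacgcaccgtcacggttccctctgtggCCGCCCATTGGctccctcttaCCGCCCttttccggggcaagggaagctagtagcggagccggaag
TERF2IP promoter, chr16:75647523-75647822, plus strand: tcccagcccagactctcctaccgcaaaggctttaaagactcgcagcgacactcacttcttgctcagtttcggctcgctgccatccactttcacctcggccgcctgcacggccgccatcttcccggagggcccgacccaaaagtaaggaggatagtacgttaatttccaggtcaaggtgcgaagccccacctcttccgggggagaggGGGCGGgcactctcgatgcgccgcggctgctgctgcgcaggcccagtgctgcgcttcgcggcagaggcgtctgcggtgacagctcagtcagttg
TERT promoter, chr5:1295019-1295318, minus strand: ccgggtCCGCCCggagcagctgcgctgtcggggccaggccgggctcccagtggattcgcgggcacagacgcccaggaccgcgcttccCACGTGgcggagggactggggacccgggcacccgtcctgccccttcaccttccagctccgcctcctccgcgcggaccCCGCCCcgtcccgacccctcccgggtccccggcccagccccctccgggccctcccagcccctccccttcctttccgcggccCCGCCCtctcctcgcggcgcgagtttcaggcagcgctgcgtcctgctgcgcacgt
ACD promoter, chr16:67660211-67660510, minus strand: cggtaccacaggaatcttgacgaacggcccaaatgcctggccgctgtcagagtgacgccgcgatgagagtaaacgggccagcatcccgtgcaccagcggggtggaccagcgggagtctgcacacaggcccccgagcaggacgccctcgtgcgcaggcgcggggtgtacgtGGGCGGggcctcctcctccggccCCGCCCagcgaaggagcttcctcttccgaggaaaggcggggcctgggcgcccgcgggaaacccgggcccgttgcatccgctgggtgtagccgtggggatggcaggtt
Within the windows, 1 E-box stood in the TERT promoter, 163 bases before the start, and 1 in that of TNKS2, 47 bases before it. The motif was thus present in a gene that fell and in the gene with the largest rise. The TERT window ends in cacgt, 1 base short of the motif, and matches that cross a window edge were not counted. Of 35114 promoters of the same length, 7.26% held CACGTG. GC boxes numbered 3 in TERT, 2 in ACD, 2 in TINF2, 1 in TERF2IP and 0 in TNKS2, against a share of 45% of all promoters with at least 1. TINF2 alone among these had CCAAT, a motif of 34.6% of promoters. No match to TTTGAA, the CHR element of cell cycle promoters, found in 15.2% of promoters, or to the p53 half-site, found in 6.63%, lay in these 5 windows. A match describes letters in the window and is no evidence of binding.

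Genes that build, trim or traffic the telomerase particle were taken as a list of 12, all measured. Of these, 2 rose and 8 fell, with a median log2 fold change of -0.503. Over all genes, 20.6% were called higher and 24.6% lower. DKC1, the pseudouridine synthase that stabilises telomerase RNA, read 8.33 and 8.57 induced against 10.08 and 10.18 uninduced. It fell by 1.68 (SE 0.106, adjusted p = 1.21e-05), the largest fall of the list. Its partner NHP2 fell by 0.85 and NAF1, which assembles the particle before GAR1 joins, fell by 0.855. The NHP2 probe set, 7929243, is numbered between those of TNKS2 and DNA2, both on chromosome 10, while NHP2 is on chromosome 5. Which locus that set reads was not tested. WRAP53, the Cajal body protein that delivers telomerase to telomeres, fell by 0.455 (SE 0.0852, adjusted p = 0.0032).

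TERC, the RNA template itself, read 9.80 and 9.73 induced against 10.06 and 9.91 uninduced. Its log2 fold change of -0.22 (SE 0.0916, adjusted p = 0.0934) did not pass, and SHQ1, a chaperone of DKC1, had one of -0.045 (adjusted p = 0.728). The risers were TGS1, the enzyme that hypermethylates the cap of telomerase RNA, at 3.66-fold (log2 fold change 1.87, SE 0.0859, adjusted p = 3.13e-06), and PARN, the deadenylase that matures that RNA, at 1.69-fold. TGS1 read 11.69 and 11.77 induced, against 9.82 and 9.90 uninduced.

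Most genes of telomere replication and end processing fell. The 11 measured included 9 that fell, 7 by 2-fold or more, and 1 that rose, with a median of -2.145. Over all genes, 24.6% were called lower, 20.6% higher and 6.77% lower by at least 2-fold. The resection nuclease gene EXO1 fell by 3.08 (SE 0.0844), the helicase gene BLM fell by 2.94 (SE 0.192), the primase gene PRIM1 fell by 2.64 (SE 0.105) and the nuclease-helicase gene DNA2 fell by 2.31 (SE 0.0850), with adjusted p-values from 7.59e-07 to 1.44e-05. Most of the list also serves DNA replication at large. The riser was STN1, a subunit of the CST complex that ends telomerase action and fills in the opposite strand. STN1 read 8.70 and 8.65 induced against 7.99 and 7.90 uninduced, a 1.66-fold rise (adjusted p = 0.000269), whereas its partner CTC1 read 8.24 and 8.31 induced against 8.92 and 8.82 uninduced and fell by 0.595 (adjusted p = 0.000879). SLX4, a nuclease scaffold, had a log2 fold change of -0.075 (adjusted p = 0.612).

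All 10 genes of damage signalling at chromosome ends were called, 9 lower and 1 higher, with a median of -0.85. The share called over all genes was 45.1%, with 24.6% lower. RIF1, a telomere-associated regulator of end joining, fell by 1.5 (SE 0.110), PRKDC, the DNA-dependent protein kinase, fell by 1.305 (SE 0.0882), NBN of the MRE11 complex fell by 1.205 (SE 0.0890) and the kinase gene ATR fell by 0.915 (SE 0.107). RAD50, another subunit of the NBN complex, rose 1.48-fold (adjusted p = 0.0018), and the Ku subunit gene XRCC6 fell by 0.505. The count of called genes was 6 without uninduced array 2.

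**Figure D4:**
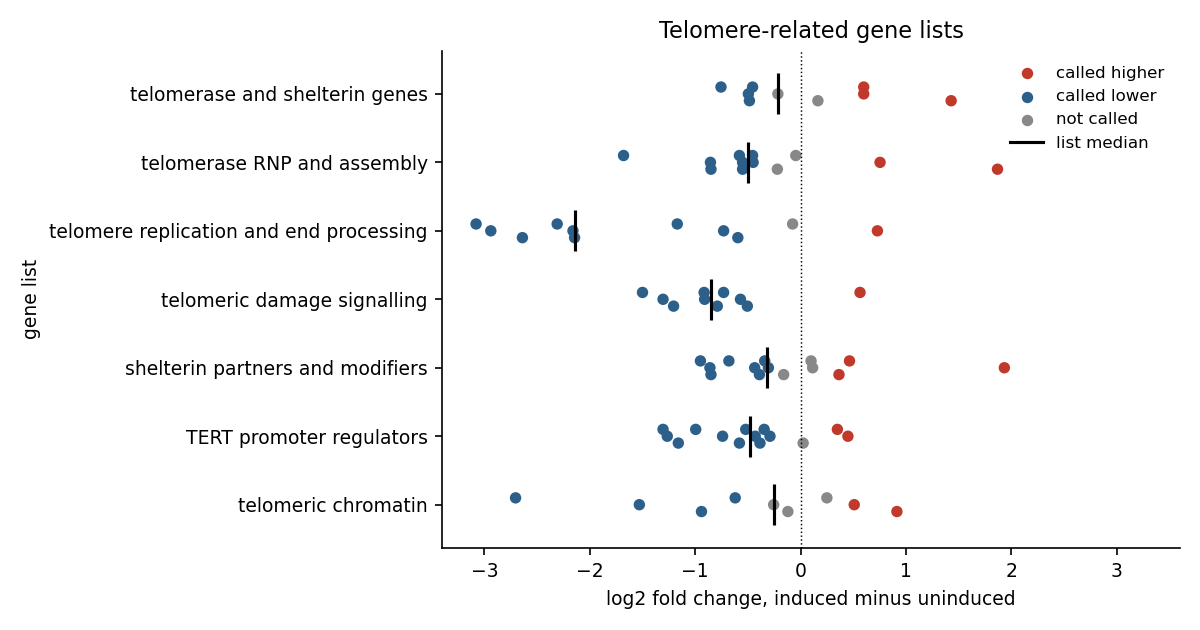
Log2 fold change, induced minus uninduced (horizontal axis), of every measured gene of the telomere-related lists (rows). Red points are genes called higher, blue lower, grey not called, and black bars list medians; the median of telomere replication and end processing is lowest, at -2.145.

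Among 14 measured partners and modifiers of shelterin, 3 rose and 8 fell, with a median of -0.323, where 45.1% of all genes were called. SMG6, an endonuclease of nonsense-mediated decay also known as EST1A, read 10.47 and 10.62 induced against 8.59 and 8.63 uninduced. It rose 3.82-fold (log2 fold change 1.935, SE 0.0904, adjusted p = 3.31e-06), while its relative SMG5 fell by 0.86 (SE 0.0866). HMBOX1, a protein that binds telomeric repeats, fell by 0.95 (SE 0.0876) and GNL3L, which stabilises TERF1 protein, fell by 0.85 (SE 0.0820). PINX1, an inhibitor of telomerase that binds TERF1, fell by 0.305 (adjusted p = 0.0219). SIAH1, a ubiquitin ligase known to target TERF2 protein, had a log2 fold change of -0.16 (adjusted p = 0.183), ZBTB48 (TZAP) one of 0.115 (adjusted p = 0.349) and the deubiquitinase gene USP7 one of 0.10 (adjusted p = 0.403). The called count of this list was 5 without uninduced array 1 and 6 without uninduced array 2, against 11 with all arrays.

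A further list held factors known to act on the TERT promoter. Of 14 measured, 2 rose and 11 fell, with a median of -0.475, where 45.1% of all genes were called and 24.6% called lower. Among the falls is GABPA, a gene on chromosome 21. Its probe set, 8133030, is numbered between those of ASF1A on chromosome 6 and COL1A2 on chromosome 7. Which locus that set reads was not tested. MYC, an activator of TERT through E-boxes, read 9.90 and 9.82 induced against 10.86 and 10.85 uninduced and fell by 0.995 (SE 0.0834, adjusted p = 4.91e-05). E2F2, ETS2 and E2F1 had log2 fold changes of -1.305, -1.265 and -1.16 (SE 0.121, 0.111 and 0.119). SP1 had one of 0.025 (adjusted p = 0.853) and USF2, another E-box factor, fell by 0.29 (adjusted p = 0.0368). The risers, named after their values were seen, were MXD1, which opposes MYC at E-boxes, at 1.27-fold (adjusted p = 0.0308) and the histone deacetylase gene HDAC1 at 1.37-fold (adjusted p = 0.00309). Among the 11 that fell, also named after their values were seen, were CTCF, by 0.74 (adjusted p = 0.00024), and WT1, by 0.52 (adjusted p = 0.026). The called count was 13 with all arrays, and 6 without uninduced array 1 and without uninduced array 2. TERT and MYC fell on the same arrays, and the part of MYC in the value of TERT was not tested.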

How the data were processed

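Biotinylated single-stranded cDNA of the H1299 line was hybridised to 4 arrays, per the labels' protocols. The deposited values are log2 expression levels that the authors made with Affymetrix Expression Console and RMA, per the submitters' processing notes, with versions, settings and build not given in the sources used here. Values lie between 2.26 and 14.3, with array medians of 7.26 to 7.33. RMA compresses fold changes of dim genes and would hide a shift of all transcripts together. No detection call or scanner file was used.

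The table has 33297 rows, of which 19460 carry 1 gene symbol, 1754 several and 12083 none. Symbols were updated by gene ID through RefSeq (GRCh38.p14; the gene IDs of 19429 rows matched), which left 18417 genes at 1 probe set each. Groups and replicate numbers came from the titles. limma 3.58.1 in R 4.3.3 fitted induced against uninduced arrays (lmFit and eBayes with no covariate; degrees of freedom 2 residual, 7.20 in total). Tests were two-sided and adjusted over all genes by Benjamini-Hochberg; SEs and 95% intervals are moderated. The fit was also run on simulated data with independent errors and far fewer changed genes than were called here. That run therefore does not vouch for the calls. Figures used Python 3.11.15 with matplotlib 3.10.9. The 12 alternatives were other normalizations, filters, probe set rules, priors and null folds, all rows, the replicate number as a block, and leaving out each array.

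The genes and lists were chosen with earlier results of these data known. Genes named were all 9 measured, and CDKN1A, MDM2, TERC, DKC1, WRAP53, CTC1, STN1, PINX1, SIAH1 and MYC. Also named were the 4 largest and 2 smallest absolute changes of each list, and the 3 genes nearest to the largest change. The nearest measured gene on each side of a called gene was counted. Every called neighbour was named, but of those not called only SLC6A18 and CARMIL2 were. PARN, MXD1, HDAC1, CTCF, WT1, GABPA, NR2C1, SMCHD1 and the cell type markers named were chosen after their values were seen. TEN1 was not analysed here, and 1 planned check is not reported here.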

Additional observations from a re-analysis of the deposited data

How the results depend on the processing

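Direction did not change for any of the 9 genes under any of the 12 alternatives, and the calls of TERF1, TERF2IP, TINF2 and TNKS2 held under all of them; 96 of 108 single-gene values kept their side of the threshold, 11 lost the call and 1 gained it. Against a null of 1.2-fold (limma's treat), TERT at -0.495 (adjusted p = 0.139), TERF2 at -0.455 (0.131) and ACD at -0.485 (0.0628) were not called, leaving 1 of 4 falls, 5479 genes over the table, 5 shelterin partners and 6 TERT promoter regulators. Without probe sets under the 40th percentile, POT1 at -0.215 was called (adjusted p = 0.0455), with fewer genes tested. Leaving out 1 array leaves a group with a lone array, assumed to vary like the others. The log2 fold change then ran from -0.63 to -0.36 for TERT, from -0.55 to -0.36 for TERF2 and from -0.55 to -0.42 for ACD. Over these 4 settings the calls numbered 4959 to 6904 over the table, 1 to 3 for the falls among the 9 genes (3 for the rises throughout), 6 to 10 for damage signalling, 5 to 10 for shelterin partners and 6 to 9 for TERT promoter regulators. Replicate numbers are shared by the groups, but nothing in the labels pairs them; duplicate differences of both groups correlated across genes at 0.225, and with the replicate block 7820 genes were called against 8311, with 3 of the 9 genes higher and 4 lower as without it. No call of the 9 genes changed under the block. Centring each array on its median moved the median of all genes by 0.075 and the higher share of all calls to 53.7%, against 45.6% as deposited, with the same 3 rises and 4 falls called among the 9 genes. The absence of detection calls limits what can be said of low levels, and the cause of the lost calls was not tested.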

Other observations

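Of 9 measured genes of telomeric chromatin, 2 rose and 4 fell, with a median log2 fold change of -0.255. By comparison, 45.1% of all genes were called. ATRX, the chromatin remodeller that deposits histone H3.3 at telomeres with DAXX, read 9.73 and 9.80 induced against 8.78 and 8.92 uninduced and rose 1.89-fold (SE 0.0905 on the log2 scale, adjusted p = 0.000114 in limma's test). DAXX read 7.57 on both induced arrays against 8.58 and 8.44 uninduced and fell by 0.94 (SE 0.0886), so the partners of this complex moved in opposite directions. The histone chaperone gene ASF1B fell by 2.705 (SE 0.0847), whereas its paralog ASF1A had a log2 fold change of 0.25 (adjusted p = 0.0732). CBX5, the heterochromatin protein HP1α, fell by 1.53 (SE 0.148) and the methyltransferase gene SETDB1 had a change of -0.12 (adjusted p = 0.293). The other riser was the nuclear receptor gene NR2C1, at 1.42-fold, and the other faller SMCHD1, at 0.651-fold.

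In gene order, the 7 called genes of telomerase, shelterin and tankyrase had 14 nearest measured neighbours, of which 3 were called in the direction of the gene they flank, 1 in the opposite direction and 10 not called, where 45.1% of all genes were called. CLPTM1L, beside TERT, fell by 0.645 (SE 0.0887, adjusted p = 0.000644), while SLC6A18 on the other side had a log2 fold change of -0.095 (adjusted p = 0.506). CYB5B, beside TERF2, fell by 1.13 (SE 0.0828), and FGFBP3, beside TNKS2, rose by 0.545 on the log2 scale (SE 0.108, adjusted p = 0.00434). KARS1, the lysyl-tRNA synthetase gene next to TERF2IP, fell by 0.66 (SE 0.0823, adjusted p = 0.000384) where TERF2IP rose. Neither neighbour of TERF1, of TINF2 or of ACD was called. CARMIL2 overlaps ACD in the annotation and had a log2 fold change of 0.135 (adjusted p = 0.409).

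The genes whose 4 array values, centred on their means, lay nearest to those of TNKS2 were ZYG11B, PTPRK and ABCB6, at Euclidean distances of 0.01, 0.0166 and 0.0218 log2 units over the 4 arrays. Their log2 fold changes were 1.44, 1.425 and 1.435.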
